A study of Mus musculus with 20 samples.

Results

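This comparison follows adipocytes of lean mice that were never given a high-fat diet (HFD) and asks which genes differed between 18 and 26 weeks of age on chow alone. It rests on 6 of the 20 TRAP–seq libraries of the series: 3 of group C (18 weeks) and 3 of group CC_s (26 weeks), chosen by their labels and not by any measured value. All 6 came from epididymal adipose tissue (epiAT) of male mice of the genotype AdipoERCre x NuTRAP on a C576BL6 background as the labels spell it, which were given tamoxifen. In these mice a Cre recombinase driven by the adiponectin promoter switches on a GFP-tagged ribosomal protein, so that pulling down GFP from a tissue lysate recovers the RNA held by adipocyte ribosomes, the translatome. Only adipocytes in which recombination took place carry the tag, and RNA of other cells can be carried along. The study used C and CC_s as lean controls for HFD-fed (H) and weight-loss (HC) mice of the same ages. C mice had received a low-fat chow since young adulthood, and CC_s mice the same chow and then a different standard chow for the weeks between both ages. Age and the change of chow therefore cannot be told apart.

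Epididymal adipose tissue is a visceral depot around the testis and epididymis. Its adipocytes store triglyceride, release fatty acids by lipolysis and secrete hormones such as leptin and adiponectin. In the mouse the depot keeps growing in early and middle adulthood, mainly by enlargement of existing adipocytes. Wnt signals restrain the formation of adipocytes, and adipocytes themselves make secreted Wnt inhibitors of the SFRP family, of which Sfrp5 is the most typical. Mest, an imprinted gene of the hydrolase fold family, is a known marker of expanding adipose tissue.

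The 6 libraries held between 17132548 and 29188898 counts over genes, so that 3 counts corresponded to 0.103 to 0.175 CPM (counts scaled to library size by TMM). They did not fall apart by age. In replicates 1, 2 and 3 of C, mitochondrially encoded genes took 23.02%, 17.9% and 3.73% of all counts, and in those of CC_s 11.9%, 3.64% and 2.00%. Nuclear-retained RNAs such as Malat1 and Neat1, which a preparation of cytosolic ribosomes should hold little of, took 3.29%, 4.46% and 0.382% in C and 0.832%, 0.783% and 0.373% in CC_s. C replicates 1 and 2 thus stood apart, and C replicate 3 lay within or near the range of CC_s. Neither share differed between the groups by an exact two-sided permutation test (mitochondrial p = 0.2, nuclear p = 0.3; 3 against 3 mice cannot go below 0.1). Over the 21464 genes tested, the log2 values of C replicate 3 correlated with those of the CC_s libraries at r = 0.962 to 0.978, but with those of C replicates 1 and 2 at 0.892 and 0.904. C replicates 1 and 2 correlated with each other at 0.963 and with the CC_s libraries at 0.884 to 0.924. These are correlations across genes, which are not independent replicates.

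**Figure D1:**
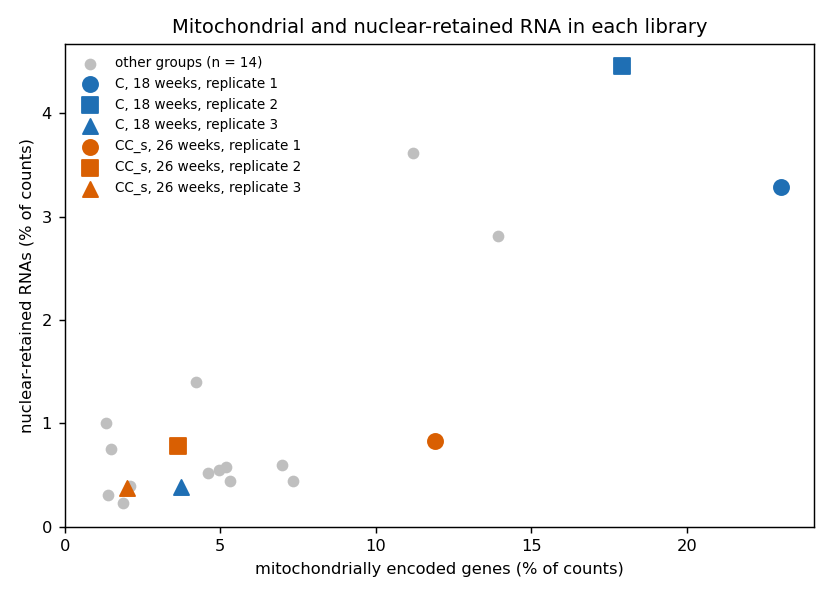
Share of counts on mitochondrially encoded genes (x axis, %) and on nuclear-retained RNAs (y axis, %) in each of the 20 libraries, 1 point per library, with C in blue, CC_s in orange and the other 14 libraries in grey. C replicates 1 and 2 have the highest mitochondrial shares (23.02% and 17.9%), while C replicate 3 (3.73% and 0.382%) lies among the CC_s and the other libraries.

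The labelled cell type was checked against its markers. The summed level of 14 adipocyte genes, Adipoq, Plin1 and Fabp4 among them, was 36226, 32375 and 144182 CPM in C and 121368, 91259 and 93210 CPM in CC_s. The sum was therefore large in every library but lowest in C replicates 1 and 2 and highest in C replicate 3. Fabp4 made up much of it, with 16224, 13965 and 103647 CPM in C and 99957, 54053 and 60987 CPM in CC_s. The order did not hold for each gene, and Cfd was highest in C replicate 1 (12088 CPM). C replicate 3 lay above every CC_s library in 7 of the 14 genes and below every CC_s library in 1. Of the 14 genes none passed the test, 11 were higher in CC_s and the median log2 fold change was 0.73, which became -0.16 without C replicates 1 and 2. Fewer adipocytes, less RNA per adipocyte and more RNA of other origin carried along cannot be told apart in bulk samples.

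A gene was called a differentially expressed gene (DEG) by the cut-offs of the study, a nominal p below 0.01 and an at least 2-fold difference, in edgeR's quasi-likelihood test. In CC_s against C, 525 of 21464 genes were DEGs (2.45%), 127 higher (0.592%) and 398 lower (1.85%). None of them passed a Benjamini-Hochberg adjusted p of 0.05 in this test (the smallest adjusted p was 0.393), although 2396 genes had an unadjusted p below 0.05. The likelihood ratio test of edgeR called 86 genes at that adjusted threshold and DESeq2 called 602. The groups did not overlap in 12.7% of all tested genes, in 120 of the 127 higher DEGs and in 221 of the 398 lower ones. Without C replicates 1 and 2, when C was represented by 1 mouse whose spread was taken from the other groups, 93 of 23751 genes were DEGs (0.392%), 80 higher and 13 lower. Only 9 of the 127 higher and 4 of the 398 lower DEGs were among them.

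The higher and the lower DEGs differed in how they depended on these libraries. Of the 127 higher DEGs, C replicate 3 lay below every CC_s library in 122, and all 127 kept a positive log2 fold change without C replicates 1 and 2, with a median of 1.31 against 1.65 with all mice. Of the 398 lower DEGs, C replicate 3 lay above every CC_s library in 225 and was the lowest of the 3 C libraries in 374. Without C replicates 1 and 2, 295 of the 398 were still lower, and the median log2 fold change went from -2.99 to -0.56. The medians of the same genes with and without these libraries share C replicate 3 and all CC_s libraries. These same libraries were also in the fit that called the genes. The counts and medians are therefore partly fixed by that choice and are no independent support for the differences. Every log2 fold change below is the fitted CC_s minus C difference. Its median over all tested genes was -0.17, and it moved to -0.31 with RLE scaling and to -0.41 with total counts alone. All DEGs had an adjusted p of 0.393 by edgeR's quasi-likelihood test. Counts of DEGs within a list below are to be read beside the share over all tested genes, 2.45%.

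Sfrp5, the secreted Wnt inhibitor, was the DEG with the smallest p among those that rose. It is ENSMUSG00000018822 on the minus strand of chromosome 19, 42197971 to 42202252 (GRCm38). Its level was 19.2, 25.4 and 31.9 CPM in C and 196, 137 and 134 CPM in CC_s (25.5 ± 6.35 against 156 ± 35.1, SD, n = 3 each). The groups did not overlap, but this was required of genes named for the largest changes, Sfrp5 among them. The difference did not rest on C replicates 1 and 2. The log2 fold change was 2.61 (SE 0.48, adjusted p = 0.393 by edgeR's quasi-likelihood test). It was 2.35 (SE 0.76) with C replicate 3 alone. The promoter of this leading gene is shown because it had the smallest p of the genes that rose, with a CCAAT motif on the opposite strand in capitals (RefSeq, GRCm38.p6, chr19:42202203-42202502, minus strand, from 250 bases before to 50 bases after the start).
Sfrp5: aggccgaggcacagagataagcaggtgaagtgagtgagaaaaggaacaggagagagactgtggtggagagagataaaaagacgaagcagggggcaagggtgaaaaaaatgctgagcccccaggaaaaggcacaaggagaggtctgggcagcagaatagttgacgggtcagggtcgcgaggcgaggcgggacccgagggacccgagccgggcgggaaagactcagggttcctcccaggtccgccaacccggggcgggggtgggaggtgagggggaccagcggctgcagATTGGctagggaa

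The capitals read CCAAT on the opposite strand. Searched on both strands, CCAAT occurred in 37.4% of 32851 RefSeq promoter windows of this length, TATAAA in 13.6%, CACGTG in 7.15% and TTGCGCAA in 0.183%. None of the last 3 was found in the Sfrp5 window. Promoter windows were given for 10 of the 15 leading rising genes, and beside Sfrp5 only Stub1, with 1 CACGTG, held any of the 4 motifs. A match of letters is a description of the window and shows no binding.

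The level of Sfrp5 in the other groups places these values. It was 150 to 267 CPM in the 3 H libraries and 119 to 291 CPM in the 3 HC libraries, and CC_s (134 to 196 CPM) lay within the range of HC and overlapped that of H. In the older lean mice it was 46.4 and 81.6 CPM at 31 weeks (CC_l) and 69.2 and 56.7 CPM at 39 weeks (CCC), between C and CC_s. Its log2 fold change in CCC against CC_l was -0.02 (SE 0.56), and in HC against H it was 0.03 (SE 0.45).

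Cebpd, a transcription factor of early adipogenesis that glucocorticoids induce, rose from 10.6, 13.3 and 10.6 CPM in C to 67.8, 55.6 and 36.6 CPM in CC_s. The C libraries were nearly equal to each other. Every CC_s library lay above them, which was required of genes named for the largest changes, Cebpd among them. The log2 fold change was 2.22 (SE 0.45, adjusted p = 0.393 by edgeR's quasi-likelihood test). It was 2.39 (SE 0.73) without C replicates 1 and 2. Cebpd lies on chromosome 16 (15887286 to 15891031, plus strand) opposite Spidr, with which it shares 13.7% of its stretches of 50 bases, and the strand setting of the counting was not given in the sources used here. Among the 20 adipogenic transcription factors it was the only DEG, and Pparg, the central one, stood at 163, 231 and 483 CPM in C and 327, 434 and 451 CPM in CC_s. The list had a median log2 fold change of 0.39, and of -0.14 without C replicates 1 and 2.

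Mest rose as well. Its level was 7.57, 18.95 and 8.33 CPM in C and 30.9, 44.4 and 84.6 CPM in CC_s. The groups did not overlap, as the same rule for the largest changes required. It rose by 2.2 on the log2 scale (SE 0.68, adjusted p = 0.393 by edgeR's quasi-likelihood test). The difference was 2.73 (SE 1.08) without C replicates 1 and 2. In CCC against CC_l Mest differed by 1.19 (SE 0.81) and in HC against H by -0.72 (SE 0.66), both below the cut-offs. It overlaps Copg2 on the other strand and shares 21.2% of its stretches of 50 bases with it. Of the 16 tested genes listed for imprinting and adipose expansion, Mest and Sfrp5 were DEGs and 12 were higher in CC_s. The list median was 0.81 and fell to 0.29 without C replicates 1 and 2. Npr3, a natriuretic peptide clearance receptor, was at 253, 280 and 436 CPM in C and 678, 621 and 531 CPM in CC_s (log2 fold change 0.92, SE 0.38, below the cut-offs), and the imprinted Peg3 at 41.8, 91.8 and 5.82 against 16.5, 24.8 and 27.8 CPM.

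**Figure D2:**
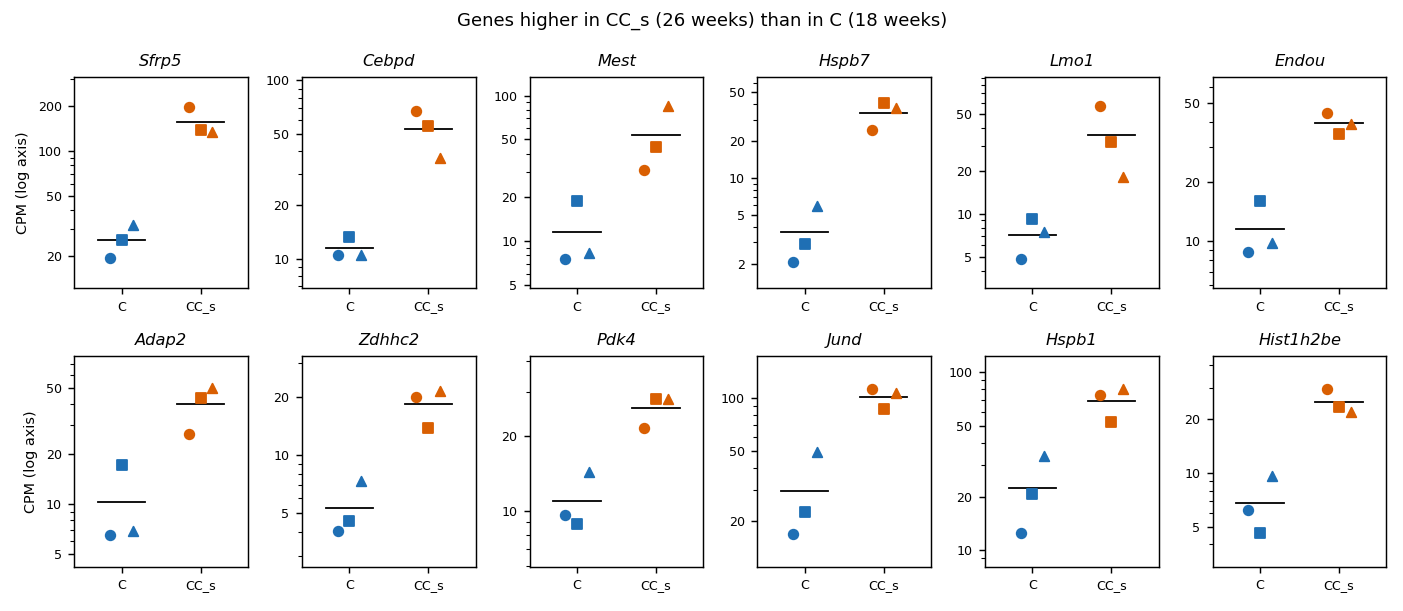
Level of 12 genes that rose from C (18 weeks, blue) to CC_s (26 weeks, orange), in CPM on log axes, with 1 point per mouse (circle, square and triangle for replicates 1, 2 and 3) and a line at the group mean. In each of the 12 panels the 3 CC_s libraries lie above the 3 C libraries, as for Sfrp5 (19.2 to 31.9 against 134 to 196 CPM). Genes named for the largest changes had to have separate groups.

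Hspb7 and Lmo1 were among the other leading rising genes. Hspb7, a small heat shock protein best known from muscle, stood at 2.07, 2.88 and 5.91 CPM in C and 24.8, 40.8 and 37.0 CPM in CC_s (log2 fold change 3.23, SE 0.85). Lmo1, a LIM-domain cofactor of transcription, was at 4.79, 9.23 and 7.43 CPM in C and 57.2, 31.8 and 18.1 CPM in CC_s (2.32, SE 0.55). Both genes were named by a rule that required separate groups, so their separation adds nothing. In CCC against CC_l the differences of Hspb7 (-2.04, SE 0.99) and Lmo1 (-1.66, SE 0.66) had the opposite sign, and neither met both cut-offs.

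Adap2, a GTPase-activating protein for Arf6, was at 6.54, 17.4 and 6.90 CPM in C and 26.4, 43.9 and 50.4 CPM in CC_s (log2 fold change 1.97, SE 0.40). Endou, an endoribonuclease, was at 8.82, 16.0 and 9.76 CPM in C and 44.2, 34.8 and 38.9 CPM in CC_s (1.77, SE 0.40). Zdhhc2, a palmitoyltransferase, was at 4.03, 4.56 and 7.34 CPM in C and 19.99, 13.8 and 21.3 CPM in CC_s (1.79, SE 0.40). These 3 were, with Sfrp5 and Cebpd, the 5 rising genes with the smallest p. Without C replicates 1 and 2 their log2 fold changes were 2.59, 2.07 and 1.38.

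Pptc7, a mitochondrial phosphatase that limits mitophagy, rose by 2.31 on the log2 scale (SE 0.55). It shares 20.5% of its stretches of 50 bases with Rad9b on the other strand. Enho, which codes for the peptide adropin, rose by 2.10 (SE 0.68), Apcdd1, a membrane-bound Wnt inhibitor, by 2.15 (SE 0.73), and Amhr2, the receptor of anti-Müllerian hormone, by 2.04 (SE 0.59). In CCC against CC_l Amhr2 fell by 2.44 (SE 0.73). All 4 were at or below 11.5 CPM in every C library. Stub1, a ubiquitin ligase of the chaperone system, rose by 2.78 (SE 0.87) and BC029722 by 2.99 (SE 0.97), but both share much of their sequence with a neighbour on the other strand (Stub1 33.7%, BC029722 37.5% of stretches of 50 bases).

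The other rising genes of the lists were few. Among 15 glucocorticoid-responsive genes, Cebpd and Pdk4 were DEGs, 14 were higher in CC_s, and the median of 0.68 was 0.56 without C replicates 1 and 2. Pdk4, the kinase that shuts pyruvate dehydrogenase in fasting, was at 9.58, 8.83 and 14.3 CPM in C and 21.4, 28.2 and 28.3 CPM in CC_s (log2 fold change 1.25, SE 0.42). In the same list the metallothionein Mt2, picked outside the naming rule, was at 65.8, 103 and 149 CPM in C and 421, 258 and 222 CPM in CC_s. Its nominal p of 0.0395 in edgeR's quasi-likelihood test missed the cut-off. For Mt1, which the rule named, the groups overlapped (318, 301 and 1093 CPM in C and 813, 1107 and 1048 CPM in CC_s).

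Gnai2, an inhibitory G protein subunit of adrenergic signalling, rose from 93.3, 141 and 184 CPM to 300, 386 and 457 CPM (log2 fold change 1.45, SE 0.43), the only DEG of 22 genes in that list. The histone deacetylase Hdac9, a known brake on adipocyte differentiation, rose from 4.25, 5.26 and 5.95 CPM to 16.9, 7.70 and 12.0 CPM (1.24, SE 0.38), the only DEG of 33 chromatin modifiers. Jund rose by 1.76 (SE 0.56) and the small heat shock protein Hspb1 by 1.63 (SE 0.55), each the only DEG of 25 genes in the immediate-early and the heat shock lists. Of all tested genes 2.45% were DEGs, so 1 DEG is about what a list of this size holds at that share. Jund shares 48.3% of its stretches of 50 bases with Gm11175 and Hspb1 shares 50.1% with Hsp25-ps1 and Gm9817.

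Replication-dependent histone genes had the highest median of the 43 pathway lists, 1.73 over 11 tested genes, of which 10 were higher in CC_s and 3 were DEGs (Hist1h1e, Hist1h2be and Hist2h3c2). Their summed level was 181, 164 and 1004 CPM in C and 1118, 924 and 1110 CPM in CC_s. C replicate 3 was thus close to CC_s, and the median fell to 0.86 without C replicates 1 and 2. These messages normally lack a poly(A) tail and the library began from poly(A). The 3 genes share 16.3% to 63.5% of their stretches of 50 bases with other histone genes, so that their counts are uncertain.

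Lars2, named for mitochondrial leucyl-tRNA synthetase, was the most abundant gene that rose, at 34.2, 423 and 1138 CPM in C and at 5990, 11992 and 15652 CPM in CC_s (log2 fold change 4.40, SE 1.23). Gm15564, chosen after the values were seen, was at 3.70, 52.2 and 167 CPM in C and 803, 1566 and 1847 CPM in CC_s (4.24, SE 1.16). The transcripts of these genes on chromosomes 9 and 16 share a run of 52 identical bases, but only 0.196% of the stretches of 50 bases of Lars2 and 0.368% of those of Gm15564 are found in another gene. CT010467.1, annotated as ribosomal RNA on chromosome 17, took 1024, 6327 and 7337 CPM in C and 25616, 34420 and 35366 CPM in CC_s. It was not a DEG, with a nominal p of 0.0209, and shares 69.1% of its stretches with Gm42418 and AY036118.

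A further pair of small annotated genes, Gm23935 and Gm24270, also chosen after the values were seen, have the same sequence over their whole length of 57 bases, as has Gm24245. They are shown because no count inside them can be assigned to a locus from the sequence alone (GENCODE vM21, GRCm38). Gm23935 lies at chr16:11144125-11144181 on the plus strand opposite Zc3h7a, and Gm24270 at chr9:56223715-56223771 on the minus strand.
Gm23935: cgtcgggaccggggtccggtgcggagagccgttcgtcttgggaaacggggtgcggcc
Gm24270: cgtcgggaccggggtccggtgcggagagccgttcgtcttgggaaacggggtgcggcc

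Gm23935 was at 12.3, 65.4 and 51.9 CPM in C and 1018, 449 and 1133 CPM in CC_s (log2 fold change 4.33, SE 1.06), and Gm24270 rose by 3.02 (SE 1.03) at a lower level. CT010467.1, Lars2 and Gm15564 together took 0.114%, 0.789% and 0.661% of counts in C and 2.73%, 4.03% and 4.55% in CC_s. Among the other 14 libraries the share ran from 0.223% to 4.85%. The CC_s values lay inside this range, while C replicate 1, at 0.114%, lay below it. With the log2 of this share as a covariate, chosen after the data were seen, 74 genes met the cut-offs in place of 525, and the part of these genes in the other differences was not tested further.

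The genes that fell included markers of cells other than adipocytes. The median level of the 398 genes over the 6 libraries was 7.51 CPM, against 19.5 CPM for those that rose. C replicate 1 was the highest of the 6 libraries in 289 of them and C replicate 2 in 104. In 48 of them C replicate 1 exceeded C replicate 2 more than 5 times. The summed level of epididymal epithelium genes was 1833, 23.8 and 26.3 CPM in C and 14.6, 10.2 and 5.20 CPM in CC_s, and that of spermatid genes 169, 31.3 and 8.51 against 7.94, 1.76 and 1.39 CPM. Crisp1 alone gave 1669, 2.58 and 23.9 CPM of the epididymal sum in C and 8.60, 0.819 and 1.39 CPM in CC_s. Over the 11 tested epididymal genes the median log2 fold change was -2.25, and 2.89 without C replicates 1 and 2. The median of the 10 spermatid genes went from -5.61 to 0.10.

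**Figure D3:**
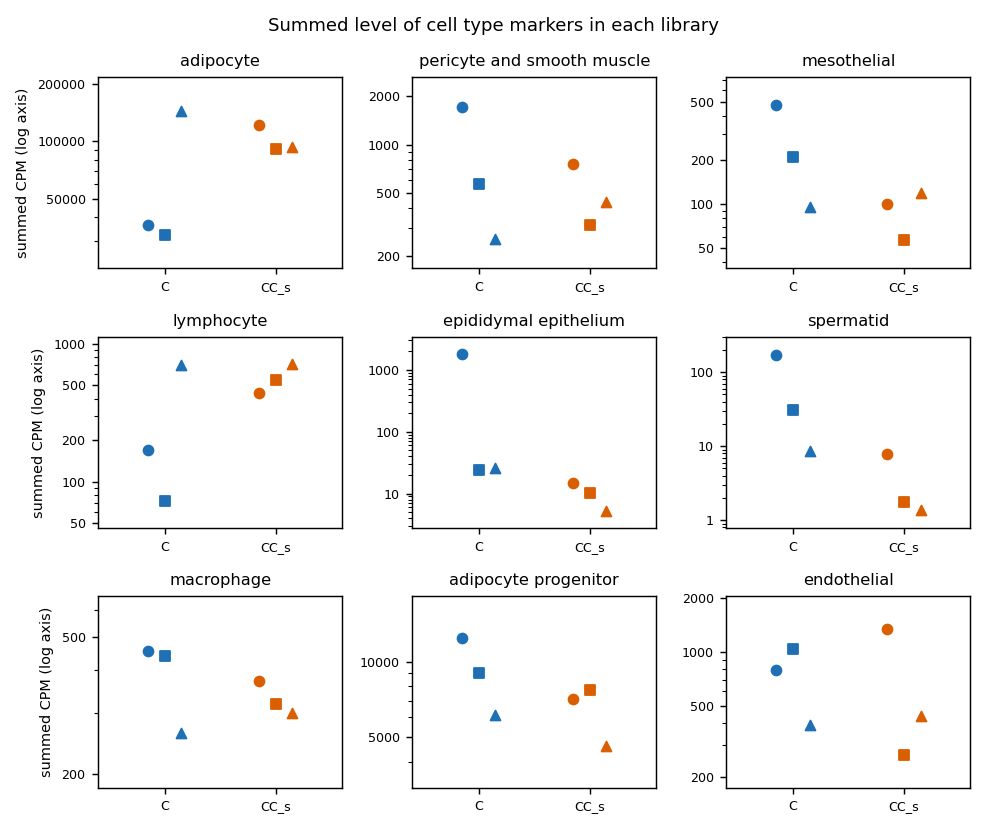
Summed level of 9 lists of cell type markers in each library, in CPM on log axes, with C in blue and CC_s in orange and circle, square and triangle for replicates 1, 2 and 3. The adipocyte sum is lowest in C replicates 1 and 2 (36226 and 32375 CPM) and the epididymal epithelium sum is highest in C replicate 1 (1833 CPM, of which Crisp1 is 1669 CPM).

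Among the leading falling genes were surface proteins of epithelia. Epcam, an epithelial adhesion molecule, was at 194, 53.8 and 11.01 CPM in C and 0.927, 6.88 and 1.39 CPM in CC_s (log2 fold change -4.79, SE 1.13). Plac8 was at 115, 1.09 and 0.627 CPM in C and 0.397, 0 and 0.127 CPM in CC_s, so that C replicate 1 set its difference. Epcam in C replicate 3 was still above every CC_s library, but the log2 fold change without C replicates 1 and 2 was -1.81 (SE 1.21). Cldn7, a tight-junction protein, fell by 4.40 on the log2 scale (SE 1.18), Kcnj16, an inward rectifier potassium channel of epithelia, by 4.65 (SE 0.93) and Prom1, a protein of membrane protrusions, by 3.41 (SE 0.79). Prom1 in C replicate 3 (13.7 CPM) lay inside the CC_s range of 6.09 to 15.6 CPM, and its log2 fold change without C replicates 1 and 2 was -0.52 (SE 0.80).

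Germ cell genes followed C replicate 1. Odf1 and Smcp, of the sperm tail and the sperm mitochondrial sheath, were at 32.1 and 34.7 CPM there, at 5.95 and 6.25 CPM in C replicate 2, at 2.96 and 3.22 CPM in C replicate 3 and at most 0.794 CPM in every CC_s library. The defensin Defb42 of the epididymal duct was at 143, 1.59 and 1.52 CPM in C and 2.18, 0.655 and 0.507 CPM in CC_s, with C replicate 1 alone above the rest. Wfdc15b, Slc28a3, Ptprz1 and Ncam1 had the same form, with 30.4 to 47.9 CPM in C replicate 1 and at most 6.75 CPM in the rest of the 6 libraries.

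Myh11, the smooth muscle myosin, showed how far 1 library could decide. It stood at 764, 49.6 and 11.8 CPM in C and 25.7, 16.0 and 8.49 CPM in CC_s, and C replicate 3 lay within the CC_s range. The log2 fold change of -4.04 (SE 1.05) became 0.56 (SE 0.78) without C replicates 1 and 2. Of 9 mesothelial genes, all were lower in CC_s and 4 were DEGs: the keratins Krt19, Krt8 and Krt18 and the transcription factor Wt1. Krt18 was at 70.1, 33.4 and 3.94 CPM in C and 2.65, 6.96 and 4.44 CPM in CC_s. Without C replicates 1 and 2 the list median went from -1.95 to 0.08 and Krt19 and Krt18 changed sign (0.35 and 0.29).

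Motile cilium genes formed another group, put together by symbol after the values were seen and therefore not tested as a list. Of 71 such genes 14 were DEGs, each lower in CC_s. Cfap44 was at 38.4, 63.6 and 2.33 CPM in C and 0.265, 5.73 and 1.27 CPM in CC_s, and the dynein heavy chain Dnah12 at 21.2, 39.7 and 3.67 against 0, 4.51 and 0.507 CPM. Unlike the germ cell and epididymal genes, both were higher in C replicate 2 than in C replicate 1. Their median log2 fold change was -2.34, and -0.03 without C replicates 1 and 2.

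**Figure D4:**
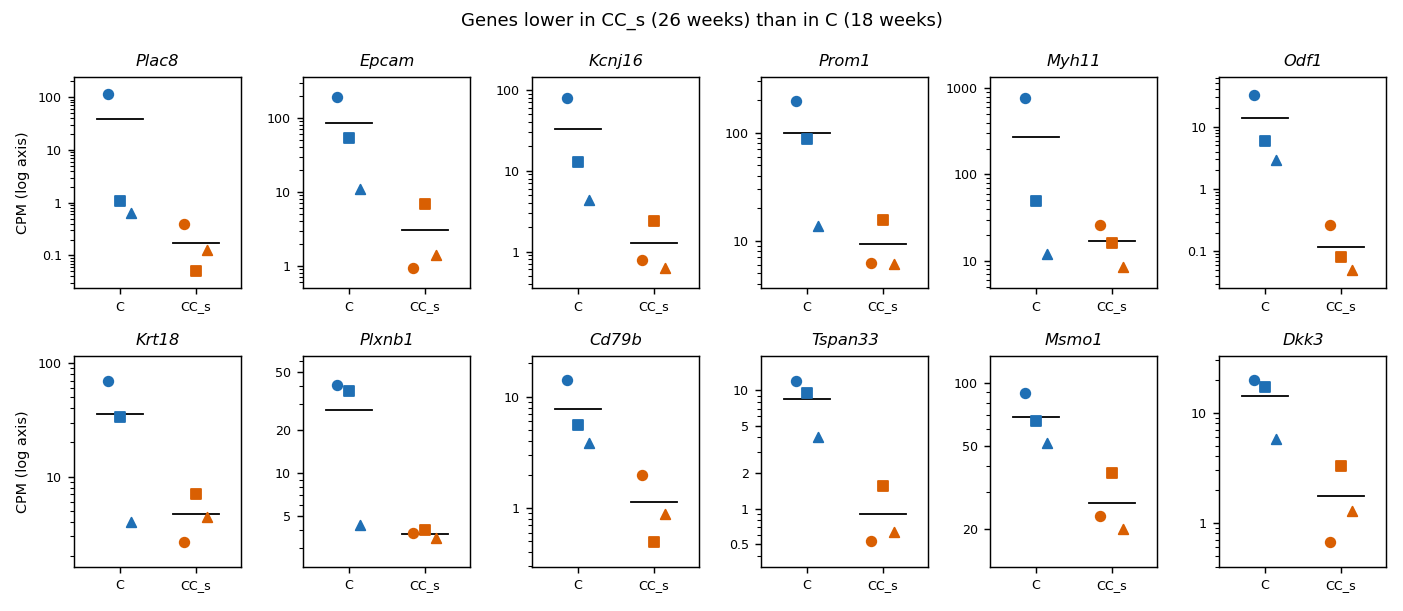
Level of 12 genes that fell from C (18 weeks, blue) to CC_s (26 weeks, orange), in CPM on log axes, with 1 point per mouse (circle, square and triangle for replicates 1, 2 and 3), a line at the group mean and a level of 0 drawn at 0.05 CPM. In Plac8 and Myh11 C replicate 1 alone sets the C mean, in Plxnb1 and Krt18 C replicates 1 and 2 do, and in Tspan33, Msmo1, Cd79b and Dkk3 C replicate 3 also lies above every CC_s library.

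Among the falling genes in which C replicate 3 also lay above every CC_s library was Msmo1. This gene codes for a methyl sterol oxidase of cholesterol synthesis and was at 89.0, 65.3 and 51.8 CPM in C and 23.2, 37.1 and 19.9 CPM in CC_s (log2 fold change -1.36, SE 0.36), the only DEG of 22 genes in that pathway. Without C replicates 1 and 2 it was at -0.91 (SE 0.44). The B cell gene Cd79b and the T cell gene Cd3g fell by 2.81 (SE 0.68) and 2.01 (SE 0.68) on the log2 scale, and Cd79b stood at 14.1, 5.56 and 3.85 CPM in C and 1.99, 0.492 and 0.887 CPM in CC_s. Of the 12 lymphocyte genes 2 were higher, among them Ighm at 130, 54.8 and 684 CPM in C and 430, 540 and 710 CPM in CC_s, which made the summed level of the list rise with the adipocyte genes.

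In the Wnt list, Sfrp5 rose and Wnt4 and the secreted protein Dkk3 fell. Wnt4, a ligand, was at 14.9, 4.42 and 2.73 CPM in C and 0.132, 1.19 and 0.761 CPM in CC_s (log2 fold change -3.38, SE 0.95). Dkk3 was at 19.7, 17.1 and 5.82 CPM in C and 0.662, 3.28 and 1.27 CPM in CC_s (-3.01, SE 0.71). The receptors Fzd4 and Lrp6, the mediators Ctnnb1 and Tcf7l2 and the target Axin2 did not pass the test. Axin2 was at 24.4, 31.4 and 34.9 CPM in C and 23.6, 24.1 and 51.6 CPM in CC_s. Over all 25 genes the median was -0.45, and -0.01 without C replicates 1 and 2. Mmp9, a gelatinase, Bmp7, a growth factor of the BMP family, and the chemokine Cx3cl1 fell by 2.45 (SE 0.66), 2.99 (SE 0.98) and 2.67 (SE 0.78), each from at most 13.4 CPM. Bmp7 was at 12.9, 6.75 and 1.7 CPM in C and 0.397, 1.97 and 0.254 CPM in CC_s, with C replicate 3 inside the CC_s range.

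The clock genes named here, which time daily rhythms of transcription, were picked after their values were seen and missed the cut-offs. Nr1d1 stood at 2.94, 3.87 and 4.16 CPM in C and 8.34, 9.99 and 13.5 CPM in CC_s, Dbp at 1.63, 2.78 and 3.67 against 4.10, 10.6 and 9.76 CPM, and Arntl at 3.59, 6.65 and 7.79 against 1.59, 3.44 and 2.03 CPM. In all 3 the groups did not overlap, as in 12.7% of all genes. The list median was -0.08. The hour of tissue collection was not given in the sources used here, so its part was not tested.

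No gene of the respiratory chain, the tricarboxylic acid cycle, fatty acid oxidation, lipolysis or lipogenesis lists was a DEG. All 43 nuclear-encoded genes of the respiratory chain were higher in CC_s, with a median of 0.48, but their summed level was 9059, 7530 and 38374 CPM in C and 22114, 32072 and 31462 CPM in CC_s. C replicate 3 was the highest of the 6, and without C replicates 1 and 2 only 5 of the 43 were higher and the median was -0.48. Cytosolic ribosomal protein genes went from 49 of 50 higher and a median of 0.55 to 10 higher and -0.27. The tricarboxylic acid cycle (0.28 to -0.51), fatty acid oxidation (0.56 to -0.32) and lipolysis (0.86 to -0.06) turned in the same way. In total the median of 26 of the 43 pathway lists changed sign when C replicates 1 and 2 were left out. The median of all tested genes changed sign as well, from -0.17 to 0.03, so the count of 26 is not a trait of the pathways alone.

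**Figure D5:**
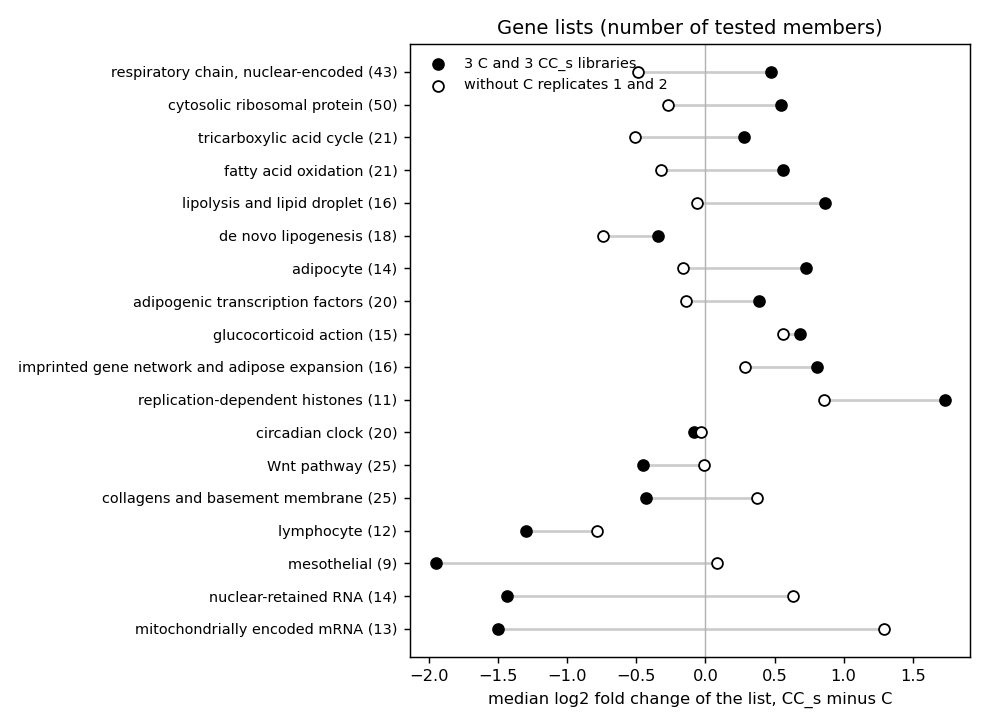
Median log2 fold change (CC_s minus C) of 18 gene lists, with the number of tested genes in brackets, over all 6 mice (filled) and without C replicates 1 and 2 (open). Respiratory chain genes move from 0.48 to -0.48, the nuclear-retained RNAs from -1.43 to 0.63, and the glucocorticoid-responsive genes stay at 0.68 and 0.56.

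De novo lipogenesis, the making of fatty acids from sugar, had a median below 0 either way. It was -0.34 with all mice and -0.74 without C replicates 1 and 2, over 18 genes with no DEG. Other lists also stayed below 0, among them cholesterol synthesis (-0.09 and -0.38) and iron and heme (-0.14 and -0.20). With all mice the median of all tested genes was itself -0.17. Fasn, fatty acid synthase, was at 644, 374 and 3634 CPM in C and 460, 2422 and 3015 CPM in CC_s, and Acly, which supplies its acetyl-CoA, at 345, 215 and 2148 against 152, 811 and 830 CPM. In both genes the groups overlapped. Mlxipl, the carbohydrate-responsive factor ChREBP, and Slc2a4, the insulin-responsive glucose transporter, were picked after their values were seen. Mlxipl was at 227, 307 and 122 CPM in C and 40.4, 97.2 and 60.7 CPM in CC_s (log2 fold change -1.72, SE 0.63), and Slc2a4 at 327, 209 and 293 against 115, 172 and 153 CPM (-0.91, SE 0.40). Neither met the cut-offs, although the groups did not overlap in either gene.

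Of 26 tested adipokines and secreted factors, Sfrp5 was the only DEG. Lep, leptin, was at 447, 667 and 2152 CPM in C and 1655, 2121 and 2430 CPM in CC_s, and Adipoq, adiponectin, at 1446, 1475 and 4895 against 2117, 4012 and 3822 CPM. Both were lowest in C replicates 1 and 2. The complement factor Cfd was at 12088, 9652 and 10132 CPM in C and 3118, 8668 and 4601 CPM in CC_s (log2 fold change -0.96, SE 0.63), with every CC_s library below every C library. In the thermogenic list (17 tested, median 0.19) no gene passed, and its sign turned to -0.01 with total counts alone.

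Few mitochondrial and nuclear-retained RNAs passed the test. Malat1 was at 23848, 28951 and 4045 CPM in C and 8324, 6930 and 3470 CPM in CC_s, and Neat1 at 5962, 8101 and 790 against 1040, 1755 and 444 CPM. Of 14 nuclear-retained RNAs only Snhg11 was a DEG (275, 326 and 23.4 against 18.2, 60.1 and 24.1 CPM), and of 13 mitochondrial mRNAs only mt-Nd6, the one read from the light strand, which overlaps mt-Nd5 on the other strand. Both changed sign without C replicates 1 and 2, to 0.58 and 0.47. With the mitochondrial share as a covariate 211 genes met the cut-offs, 124 higher and 87 lower, and with the nuclear share 243, 141 higher and 102 lower. The share of rising genes went from 24.2% of all calls to 58.8% and 58.0%. Beyond these fits, the part of either RNA in the differences was not tested.

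The same kind of comparison could be made in older lean mice, 39 weeks (CCC, n = 2) against 31 weeks (CC_l, n = 2), where 572 of 21464 genes met the cut-offs (2.66%), 162 higher and 410 lower. These libraries share no sample with C and CC_s. None of the 127 genes that rose in CC_s rose in CCC and 2 fell there (Amhr2 and Azin2). Of the 398 that fell, 40 also fell in CCC (10.1% of those that fell in CC_s and 9.76% of those that fell in CCC) and 4 rose. Of all 21464 tested genes 162 rose and 1.91% fell in CCC. At these shares few of the 127 genes that rose in CC_s would be called in CCC, so their counts are not a result about them. CC_l replicate 1 held 3833 CPM of spermatid genes and 2364 CPM of motile cilium genes, against 14.8 and 487 CPM in CC_l replicate 2, 4.66 and 312 CPM in CCC replicate 1 and 10.3 and 185 CPM in CCC replicate 2. Odf1 fell by 10.76 (SE 3.06) and Smcp by 10.59 (SE 3.04) on the log2 scale there, and the part of this RNA in the shared genes was not tested. No gene differed between both effects at an adjusted p of 0.05 in edgeR's quasi-likelihood test (smallest adjusted p 0.317; 2772 genes had an unadjusted p below 0.05), while DESeq2 called 455 and the likelihood ratio test 35. For Sfrp5 the nominal p of this difference was 0.00218 and for Mest it was 0.345. A difference between HC and H on the one hand and CC_s and C on the other was likewise called for no gene (2538 unadjusted), with a nominal p of 0.00101 for Sfrp5 and 0.0066 for Mest.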

How the data were processed

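TRAP–seq libraries (oligo-dT cDNA, paired-end) of 20 mice in 8 groups were deposited by the authors as raw counts per Ensembl gene. According to the submitters' processing notes and the study's methods, reads were trimmed with Trim Galore 0.6.6, checked with FastQC 0.11.9, aligned to mm10 with HISAT2 2.2.1 and counted with featureCounts of Subread 2.0.1. Which gene annotation was used, and whether strand or pairs were considered in counting, was not given in the sources used here. Between 81.0% and 89.2% of non-zero counts of the 6 libraries were even, so both reads of a pair may have been counted.

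Of 46078 genes, 45229 (98.2%) were given a symbol and position by GENCODE vM21 (GRCm38). Genes were filtered with filterByExpr (21464 kept), scaled by TMM and fitted in edgeR 4.0.16 (glmQLFit, glmQLFTest, R 4.3.3) over all 20 libraries in 8 groups, which share 1 estimate of the spread (biological coefficient of variation 0.680). The contrast was CC_s minus C, positive where CC_s was higher. The SE is the log2 fold change divided by the root of the F statistic. Levels are CPM over TMM-scaled library sizes. Replicates are labelled as biological, and p-values measure the spread between them. DESeq2 1.42.0, other scalings, filters, sample sets and covariates were tried.

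The members and gene lists were chosen with earlier results of these data known. Named were, among DEGs with a symbol, the 12 largest changes each way with separate groups and a mean of at least 5 CPM, the 5 smallest p each way and the DEGs of the lists, and beside them the 3 most abundant members of each list and the nuclear-retained and mitochondrially encoded RNAs. Predicted genes and pseudogenes were named only among the smallest p. Names outside this rule were picked with values known. Not each is marked where it appears, among them Mt2, Peg3, Fzd4, Lrp6, Axin2, Acly, Lep and Adipoq. Levels of 3 counts or fewer cannot be told from 0, for counting error alone. Some items that the rule would name are not reported here.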

Additional observations from a re-analysis of the deposited data

How the results depend on the processing

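The count of 525 DEGs in CC_s against C stayed within 1.5 times under RLE scaling (643), total counts (563), library sizes without mitochondrial genes (577), no filter (620), halved counts (582), the short arm alone (535), CC_l replicate 1 left out (585) and, chosen after seeing the data, library sizes also without CT010467.1, Lars2 and Gm15564 (572). It moved to 1394 with DESeq2 (177 higher, 1217 lower), 1140 with the likelihood ratio test, 311 with the 6 libraries alone, 211 and 243 with the mitochondrial and nuclear-retained RNA covariates, 74 with the share of those 3 genes as a covariate, and 0 with adjusted p as the call rule. Leaving out 1 replicate gave 128 to 2184 DEGs: 128 without C replicate 1, 275 without C replicate 2, 2184 without C replicate 3, 315 without CC_s replicate 1, 448 without CC_s replicate 2 and 183 without CC_s replicate 3. Without C replicates 1 and 2 together it was 93, and 134 in the short arm alone, which was added after seeing the data. There C is 1 library, assumed to vary like the other groups. The cause of these moves was not tested.

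Of 56 named DEGs, 5 reversed without C replicates 1 and 2, to log2 fold changes (all libraries, then short arm alone) of 0.56 and 0.52 for Myh11, 0.35 and 0.30 for Krt19, 0.29 and 0.25 for Krt18, 0.47 and 0.42 for mt-Nd6 and 0.58 and 0.53 for Snhg11, and none did under the other settings. In the first of these fits 46 more missed the cut-offs and 5 still met them. Of the 56, 48 missed them with the covariate of the 3 genes, 36 without C replicate 1, 23 without CC_s replicate 3, and 20 and 21 with the mitochondrial and nuclear covariates. The difference of the effects in the 2 arms had 0 genes at an adjusted p of 0.05 in every edgeR quasi-likelihood fit, while DESeq2 called 455 and edgeR's likelihood ratio test 35. The mitochondrial share differed by -14.6 to -4.98 percentage points and the nuclear share by -3.21 to -1.17 when 1 replicate was left out.

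Whether the replicate numbers pair the mice was not settled. Deviations of same-numbered libraries correlated at 0.27, 0.058 and 0.38. Those of differently numbered libraries correlated at 0.16 for C replicate 2 with CC_s replicate 1 and otherwise at -0.30 to 0.0053. With the replicate number as a block, in the 6 libraries, 755 genes met the cut-offs (305 higher, 450 lower), 298 of them among the 525, and 4 had an adjusted p below 0.05.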

Other observations

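Mitochondrial and nuclear-retained RNA were also high in single libraries of other groups. HC replicate 3 had 13.9% mitochondrial and 2.81% nuclear-retained counts, and CCC replicate 2 had 11.2% and 3.61%, while the median over the 14 libraries outside C and CC_s was 4.78% and 0.562%. Without Gm26917 and Gm42418, which lie in the ribosomal DNA region of the assembly, the nuclear-retained share was 3.27%, 4.40% and 0.379% in C and 0.804%, 0.751% and 0.349% in CC_s, so these genes did not set it.

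Among the 93 genes that met the cut-offs without C replicates 1 and 2, 45 had a level of 0 in C replicate 3 and were above 0 in both C replicates 1 and 2. Gabre, a GABA receptor subunit, was at 2.72, 3.97 and 0 CPM in C and 2.52, 2.54 and 1.39 CPM in CC_s. Hs6st1, a heparan sulfate sulfotransferase, was at 1.03, 1.79 and 0.0895 CPM in C and 1.06, 3.24 and 3.93 CPM in CC_s. Both genes were picked after their values were seen.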
